A study of Mus musculus with 18 samples.

Results

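Injury to the intestinal epithelium is followed by a state in which crypt cells express genes of the fetal gut, and 9 genes that mark this regenerative or fetal-like epithelium were followed here in PRMT1-deficient crypts. They are Clu, Anxa1, Ly6a, Ly6d, Msln, Il33, Il1rn, S100a6 and Sprr1a, found by gene symbol as 9 of the 55335 genes of the count table and read in each genotype on each day. All 9 were among the 21349 genes that passed a filter on low counts. In homeostasis, Lgr5-positive stem cells at the crypt base renew the epithelium. After damage these cells can be lost, and cells outside the base then enter a transient state with high Ly6a (the surface protein Sca-1), Clu and annexins and with low adult stem cell genes. The state has been linked to YAP and TAZ, the coactivators held back by the Hippo kinases, and to inflammatory and interferon signals from the damaged tissue.

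Crypts were purified from the small intestine with 20 mM EDTA and a 70 µm strainer. KO mice had LoxP sites on both Prmt1 alleles. They expressed the tamoxifen-dependent recombinase CreERT2 from the villin promoter, which is active in intestinal epithelial cells. Prmt1 in cells of other origin was not measured apart. WT mice were PRMT1^fl/fl littermates lacking Cre, and both genotypes, aged 8 to 12 weeks, were given tamoxifen at 2 mg per injection. Since only KO mice carried CreERT2, an effect of active Cre and an effect of Prmt1 loss cannot be told apart in these groups. Day 2 crypts had followed 2 injections, and crypts of days 7 and 14 had followed 5. Each of the 6 groups (WT and KO at days 2, 7 and 14) held 3 libraries of ribosomal RNA-depleted RNA, 1 per mouse. The labels give no sex. According to the study KO and WT mice were matched for it. Genes of the study's male against female table were left out, and the model held no term for sex. Total counts per library were 20609314 to 31493484 in WT and 14885483 to 24181072 in KO at day 2. They were 15285285 to 25596195 in WT and 22896441 to 29330630 in KO at day 7, and 12844642 to 25484868 in WT and 15390043 to 19982869 in KO at day 14. Levels are in CPM, counts brought to a common library total with edgeR's TMM factors, and spreads are SDs of 3 libraries. The genotypes were compared within each day to ask when the genes differ, and days were compared to ask when they change. A gene is said to have risen or fallen where edgeR's quasi-likelihood test gave a p, Benjamini-Hochberg adjusted over all 21349 genes, under 0.05. SE is the standard error of a log2 fold change.

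The libraries carried their labels. Prmt1 was lower in all 3 KO than in all 3 WT libraries on each day, with 13.1 to 15.8 CPM against 26.1 to 27.1 CPM at day 2. It was at 13.6 to 17.4 CPM against 22.3 to 25.9 CPM at day 7. By edgeR's model the KO level was 0.541, 0.666 and 0.609 of that in WT at days 2, 7 and 14, so part of the Prmt1 counts remained. Esr1, whose human counterpart supplies the hormone-binding part of CreERT2, reached 5.35 ± 0.982 CPM in KO libraries of day 2, against 0.258 ± 0.0813 CPM in WT. The 10 epithelial marker genes summed to 5296 to 10529 CPM in the 18 libraries, with the keratin Krt8 the most abundant. In this and the other gene lists, the most abundant gene is the one with the highest mean level per length of exon. Of 8 neutrophil markers none passed the filter, and Mpo and Elane had 0 counts in every library. Of 10 markers of stratified squamous epithelium, the tissue in which Sprr and Ly6d proteins are best known, only Krt14 passed, and Krtdap had 0 counts.

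Across the 18 libraries the genes differed widely in level. On the scale of CPM per kb of exon, S100a6 had the highest mean level at 15.1, followed by Il33 at 4.30 and Ly6a at 2.07. Mean CPM per kb was 1.47 for Clu, 1.19 for Msln, 1.01 for Sprr1a, 0.818 for Ly6d and 0.746 for Anxa1. Il1rn was lowest at 0.135. In WT day 7 crypts, S100a6 stood at 9.42 ± 1.68 and Il33 at 3.15 ± 0.830 CPM per kb, and these 2 levels were separated by more than their spread. The levels from Msln (0.939 ± 0.386) through Clu (0.685 ± 0.265), Sprr1a (0.569 ± 0.457), Ly6a (0.502 ± 0.132), Anxa1 (0.411 ± 0.270) and Ly6d (0.358 ± 0.0697) did not differ beyond theirs from 1 neighbor to the next. In KO day 7 crypts the order was S100a6 (27.6 ± 12.4), Il33 (8.03 ± 2.42), Ly6a (6.83 ± 4.87) and Sprr1a (2.21 ± 1.06), followed by Clu (1.55 ± 0.268), where from Il33 down to Clu no gene differed from the next beyond their spread. Counts behind these levels were small for some genes. Il1rn had 2 to 55 counts per library, Ly6d 1 to 25 and Sprr1a 2 to 62, whereas S100a6 had 166 to 1266 and Il33 45 to 683.

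At day 7, Ly6a, Il33, Il1rn, S100a6 and Sprr1a rose in KO crypts, by 2.57-fold for Il33 to 13.6-fold for Ly6a. They encode a surface protein, an IL-1 family cytokine, an IL-1 receptor antagonist, a calcium-binding protein and a precursor of the cornified envelope. With 5 of 9 higher, the genes exceeded the share over all genes tested, of which 7.11% rose. The 9 genes and the lists below were chosen with earlier results of these data known, so such an excess is not independent of the choice. Of the 9 genes 0 fell by edgeR, 0 were lower at an unadjusted p under 0.05 and 0 were lower by DESeq2, while 10.2% of all genes tested fell. All 3 KO libraries lay above all 3 WT libraries for 7 of the 9 genes, Ly6d and Clu included, against 15.9% of all genes tested. The median log2 fold change of the 9 genes was 1.55, beside 0.02 over all genes tested. In bulk crypts, fewer cells of a type and less RNA per cell cannot be told apart, and the same holds for more.

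**Figure D1:**
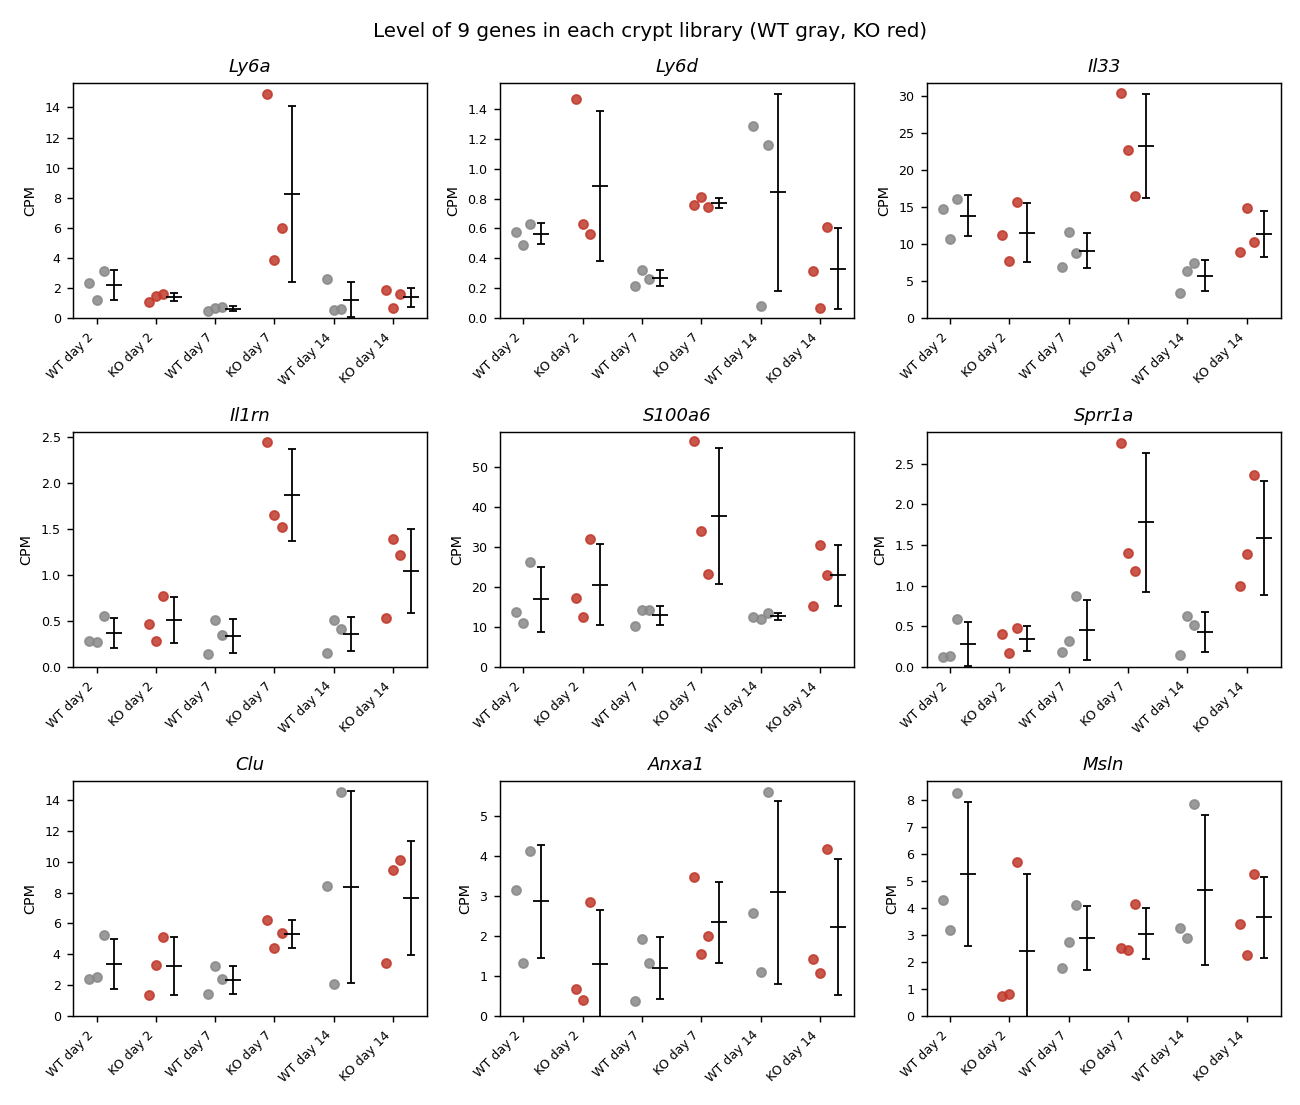
Level in CPM (y axis, from 0) of each of the 9 genes in the 6 groups (x axis); each point is 1 library (WT gray, KO red), and the bar beside it is the mean with 1 SD, not drawn below 0. At day 7 the KO libraries lie above the WT libraries for Ly6a, Ly6d, Il33, Il1rn, S100a6, Sprr1a and Clu, whereas Anxa1 and Msln overlap.

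Il33 and Il1rn belong to the IL-1 family of cytokines. IL-33 is kept in the nucleus of barrier cells and, when cells are damaged, is released to act on immune cells through the receptor ST2 (Il1rl1). Il33 (ENSMUSG00000024810.16, chr19:29925114-29960718 on the forward strand of mm10) stood at 30.4, 22.7 and 16.4 CPM in KO day 7 replicates 1, 2 and 3, and at 6.87, 11.6 and 8.76 CPM in WT. Every KO library was above the highest WT library. Its log2 fold change was 1.36 (SE 0.31, adjusted p = 0.00541 by edgeR's quasi-likelihood test, Benjamini-Hochberg adjusted). Il1rn encodes the secreted antagonist that occupies the IL-1 receptor without signaling. Il1rn (ENSMUSG00000026981.15, chr2:24336853-24351494, forward strand) was present at 2.45, 1.65 and 1.53 CPM in the KO libraries and 0.144, 0.511 and 0.350 CPM in WT, from 35 to 55 counts against 4 to 8. The lowest KO library was well above the highest WT library. The log2 fold change of Il1rn was 2.56 (SE 0.48, adjusted p = 0.00119, same test).

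Ly6a and Ly6d encode small proteins anchored to the cell surface by a lipid. Ly6a (ENSMUSG00000075602.10, chr15:74994877-74998031, reverse strand) is inducible by interferon and is widely used as the marker of fetal-like epithelium. It was at 14.9, 3.83 and 5.98 CPM in KO day 7 replicates 1, 2 and 3 and at 0.432, 0.639 and 0.745 CPM in WT. KO replicate 1 was far above the other KO libraries, yet each of these was also well above every WT library. The log2 fold change of 3.77 (SE 0.64, adjusted p = 0.000701 by edgeR's quasi-likelihood test, Benjamini-Hochberg adjusted) was the largest of the 9 genes. Without KO replicate 1 it was 3.04 with an adjusted p of 0.00222, and with each library left out in turn the adjusted p ranged from 0.000398 to 0.00730. Ly6d (ENSMUSG00000034634.7, chr15:74762056-74763620, reverse strand) was much less abundant. It had 0.757, 0.807 and 0.742 CPM in KO and 0.216, 0.319 and 0.262 CPM in WT at day 7, from 17 to 23 counts against 5 to 6. The groups did not overlap, but the log2 fold change of 1.55 (SE 0.67, adjusted p = 0.125) did not pass the test.

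S100a6 and Sprr1a lie in the epidermal differentiation complex, a cluster of genes for proteins of the outer epidermis. S100a6 (ENSMUSG00000001025.8, chr3:90612882-90624181, forward strand) encodes calcyclin, a calcium sensor of the S100 family. It was at 56.3, 33.8 and 23.1 CPM in KO day 7 replicates 1, 2 and 3, and at 10.2, 14.1 and 14.3 CPM in WT. The KO libraries spread over a wide range, all above the tightly grouped WT libraries. Sprr1a (ENSMUSG00000050359.7, chr3:92483952-92485895, reverse strand) encodes a small proline-rich protein that transglutaminases link into the cornified envelope, and it is also induced in regenerating nerve and stressed heart. Its level was 2.76, 1.40 and 1.18 CPM in KO and 0.180, 0.319 and 0.876 CPM in WT. WT replicate 3 came close to the lowest KO library without overlapping it. The log2 fold change was 1.56 for S100a6 (SE 0.40, adjusted p = 0.0151) and 1.94 for Sprr1a (SE 0.58, adjusted p = 0.0255), both by edgeR's quasi-likelihood test, Benjamini-Hochberg adjusted.

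These 2 calls depended on single libraries. With KO day 7 replicate 1 omitted, S100a6 had a log2 fold change of 1.17 (adjusted p = 0.0781) and Sprr1a of 1.51 (adjusted p = 0.138). Without WT day 7 replicate 1 the values were 1.41 (adjusted p = 0.0701) and 1.5 (adjusted p = 0.127), and either omission left 3 of the 9 genes called. Sprr1a also missed the threshold without WT day 7 replicate 2 (1.78, adjusted p = 0.0877), whereas without WT day 7 replicate 3 its log2 fold change was 2.88. With each library left out in turn, the adjusted p ranged from 0.00770 to 0.0781 for S100a6 and from 0.0102 to 0.138 for Sprr1a. For Ly6a, Il33 and Il1rn the call remained without any of the 6 libraries. Over all genes tested, 3690 were called with all libraries and 2051 without KO day 7 replicate 1.

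KO day 7 replicate 1 had the highest level of Ly6a, Il33, Il1rn, S100a6 and Sprr1a among the 18 libraries, and other markers set it apart from the other day 7 libraries. The 16 adult stem cell genes summed to 851 CPM in it, 1564 and 1649 CPM in the other KO day 7 libraries and 2455 to 3086 CPM in WT day 7. Paneth cells, which guard the stem cells with antimicrobial peptides, showed the same order. Their 7 markers, with Defa24 the most abundant, summed to 1434 CPM in replicate 1, 4047 and 3862 CPM in the other KO libraries and 9160 to 15369 CPM in WT. The 10 markers of enterocytes, the absorptive cells that mature toward the villus, summed to 22939 CPM in replicate 1, 16459 and 15117 CPM in the other KO libraries and 10322 to 13047 CPM in WT. At day 2 these markers summed to 18842 to 23645 CPM in KO and 14003 to 32200 CPM in WT, a range that includes replicate 1. Of these 10 enterocyte genes, with Apoa1 the most abundant, 2 rose and 1 fell at day 7, against 7.11% and 10.2% of all genes tested, and 9 were above 0. The part of these cell populations in the rise of the 5 genes was not tested.

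Clu, Anxa1 and Msln did not pass the test at day 7. Clu (ENSMUSG00000022037.15, chr14:65968483-65981547, forward strand), the secreted chaperone clusterin that marks the damage-induced revival stem cell, was at 6.23, 4.39 and 5.37 CPM in KO and 1.44, 3.26 and 2.37 CPM in WT. All KO libraries were above all WT libraries, with a fold change on the log2 scale of 1.21 (SE 0.63, adjusted p = 0.223 by edgeR's quasi-likelihood test, Benjamini-Hochberg adjusted). Clu was called in a model of only the groups compared (log2 fold change 1.19, adjusted p = 0.0222), while its adjusted p over all 9 other settings ranged from 0.0222 to 0.417. Anxa1 (ENSMUSG00000024659.15, chr19:20373428-20390944, reverse strand), a phospholipid-binding protein that restrains inflammation, was at 1.54 to 3.47 CPM in KO and 0.360 to 1.92 CPM in WT. Msln (ENSMUSG00000063011.7, chr17:25748613-25754378, reverse strand), the surface protein mesothelin, was at 2.46 to 4.15 CPM in KO and 1.76 to 4.12 CPM in WT. The groups overlapped for both, with log2 fold changes of 1.03 (SE 0.79) for Anxa1 and 0.09 (SE 0.66) for Msln. Ly6d, whose groups did not overlap, was called in 3 of 8 other settings, namely with no filter on low counts (adjusted p = 0.0485), with a block for replicate number within each day that was added after the data were seen (0.0212) and with only the groups compared (0.0207). Over the 8 settings its adjusted p ranged from 0.0207 to 0.130.

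At day 2, when Cre had been active for the shortest time, 0 of the 9 genes were called by edgeR, 0 had an unadjusted p under 0.05 and 0 were called by DESeq2. Over all genes tested edgeR called 0.0328%, 3.33% had an unadjusted p under 0.05 and DESeq2 called 0.0609%. These counts do not set the 9 genes apart. Their log2 fold changes ran from -1.07 for Anxa1 and -1.06 for Msln to 0.59 for Ly6d, with 4 above 0 and 5 below and a median of -0.04. With each library left out in turn they ranged from -2.44 to -0.65 for Anxa1, from -2.77 to -0.58 for Msln and from 0.064 to 0.86 for Ly6d. The values -2.44, -2.77 and 0.86 were those without KO day 2 replicate 3, and 0.064 was that without KO day 2 replicate 1. Ly6a was at 1.07, 1.43 and 1.6 CPM in KO and 2.34, 1.16 and 3.12 CPM in WT. Il33 was at 11.1, 7.70 and 15.7 CPM in KO and 14.6, 10.7 and 16 CPM in WT. For each of the 9 genes the KO and WT libraries overlapped, and over all genes tested they stood apart for only 8.16%.

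At day 14, 0 of the 9 genes passed the test by edgeR, 3 had an unadjusted p under 0.05 and 2 (Il33 and Sprr1a) were called by DESeq2. Over all genes tested, edgeR called 7.92%, 3.23% higher and 4.69% lower in KO. An unadjusted p under 0.05 was found for 21.6% of all genes tested, and DESeq2 called 9.76%. For Il33, Il1rn, S100a6 and Sprr1a all 3 KO libraries were still above all 3 WT libraries, 4 of 9 genes against 12.4% of all genes tested. For Il1rn this was close to a tie, with 0.527 CPM (10 counts) in KO replicate 1 and 0.513 CPM (13 counts) in WT replicate 2. Il33 was at 8.85, 14.8 and 10.2 CPM in KO and 3.40, 6.28 and 7.41 CPM in WT. Sprr1a was at 1.00, 1.39 and 2.36 CPM in KO and 0.151, 0.632 and 0.510 CPM in WT. The KO levels of Sprr1a at day 14 overlapped those at day 7, and those of Il33 lay below them. Log2 fold changes were 0.96 for Il33 (SE 0.32, adjusted p = 0.0786 by edgeR's quasi-likelihood test, Benjamini-Hochberg adjusted), 1.75 for Sprr1a (SE 0.60, adjusted p = 0.0823), 1.40 for Il1rn (SE 0.50, adjusted p = 0.0987) and 0.86 for S100a6 (SE 0.40, adjusted p = 0.233). With DESeq2 the adjusted p was 0.0245 for Il33 and 0.0480 for Sprr1a, and over all other settings it ranged from 0.0177 to 0.214 and from 0.0196 to 0.0827. With a block for replicate number within each day, added after the data were seen, edgeR called 3 of the 9 genes, Il33 (log2 fold change 1.00, adjusted p = 0.0177), Il1rn (1.52, adjusted p = 0.0396) and Sprr1a (1.83, adjusted p = 0.0480). Sprr1a was also called with no filter on low counts (adjusted p = 0.0196) and S100a6 with only the groups compared (adjusted p = 0.0495).

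Ly6a was at 1.84, 0.631 and 1.62 CPM in KO and 2.57, 0.513 and 0.556 CPM in WT at day 14. The KO and WT libraries were then interleaved, with a fold change on the log2 scale of 0.32 (SE 0.66, adjusted p = 0.842 by edgeR's quasi-likelihood test, Benjamini-Hochberg adjusted). Clu ranged from 3.43 to 10.1 CPM in KO and from 2.05 to 14.6 CPM in WT, the widest spread within a group for this gene. Log2 fold changes of Clu, Anxa1, Msln and Ly6d were -0.13, -0.49, -0.37 and -1.27. Without WT day 14 replicate 3 they were above 0 for Clu (0.61), Anxa1 (0.33) and Msln (0.27), and that of Clu was 0.25 without KO day 14 replicate 1. That of Ly6a was below 0 without WT day 14 replicate 2 (-0.081) or 3 (-0.017). Ly6d rested on 1 to 9 counts in KO and 2 to 25 in WT, and without WT day 14 replicate 2, the lowest WT library at 0.0790 CPM, its log2 fold change was -1.89 and its adjusted p 0.0414 (0.0414 to 0.633 with each library left out in turn).

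**Figure D2:**
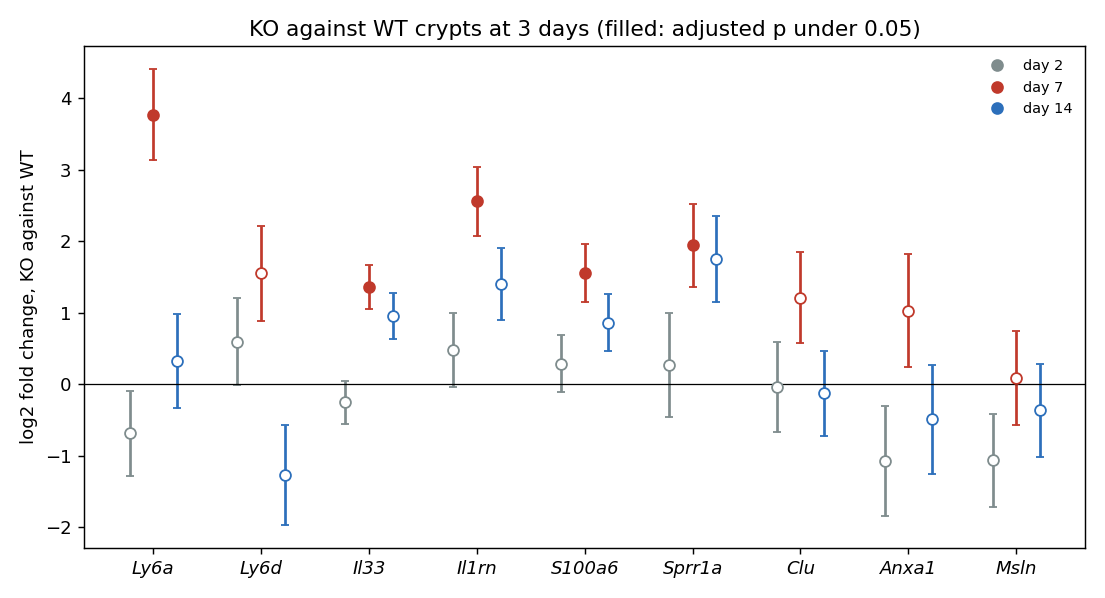
Log2 fold change of KO against WT (y axis) for each of the 9 genes (x axis) at days 2, 7 and 14, with bars of 1 SE; filled points have an adjusted p under 0.05. The 5 filled points are Ly6a, Il33, Il1rn, S100a6 and Sprr1a at day 7.

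The KO effect itself was compared between days. From day 2 to day 7 the difference between KO and WT grew for Ly6a, with a difference of the log2 fold changes of 4.46 (SE 0.87, adjusted p = 0.00809 by edgeR's quasi-likelihood test, Benjamini-Hochberg adjusted), and for Il33, with 1.62 (SE 0.43, adjusted p = 0.0426). These are 2 of 9 genes, against 1.33% of all genes tested that were called higher. All 9 differences were above 0, with a median of 1.62. Changes in WT enter these differences as well, and from day 2 to day 7 in WT 8 of the 9 genes had a log2 fold change below 0. An unadjusted p under 0.05 was found for 4 of the 9, against 18.1% of all genes tested. For Ly6a the call remained without any of the 12 libraries, and the difference was 3.71 without KO day 7 replicate 1. For Il33 it was lost without KO day 2 replicates 1 or 2, WT day 2 replicates 1 or 3, KO day 7 replicates 1 or 2, or WT day 7 replicates 1 or 3. Over these omissions the Il33 difference was 1.38 to 1.63, and its adjusted p ranged from 0.0204 to 0.126 over all 12. Il33 was not called with no filter on low counts (adjusted p = 0.118) or with a block for replicate number (0.0517). Msln was called without KO day 2 replicate 3 (2.86, adjusted p = 0.0490) and with the block within each day (1.58, adjusted p = 0.0421), and either way 3 genes were called. Il1rn (2.08, adjusted p = 0.116), Sprr1a (1.67, adjusted p = 0.370) and S100a6 (1.27, adjusted p = 0.247) were not shown to differ between days 2 and 7. With each library left out in turn, the Sprr1a difference ranged from 0.54 to 2.61.

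From day 7 to day 14 all 9 differences of the KO effect were below 0, from -3.45 for Ly6a and -2.82 for Ly6d to -0.19 for Sprr1a. Leaving out each library in turn gave -3.85 to -2.43 for Ly6a and -3.52 to -2.36 for Ly6d. The Sprr1a difference was above 0 in 4 of 12 fits that left out 1 library, namely without KO day 7 replicate 1 (0.25), WT day 7 replicate 1 (0.25), KO day 14 replicate 1 (0.048) or WT day 14 replicate 2 (0.16), and that of Msln was 0.17 without WT day 14 replicate 3. By edgeR 0 of the 9 genes were called, 2 (Ly6a and Ly6d) had an unadjusted p under 0.05, and DESeq2 called 0. Of all genes tested 4.46% had an unadjusted p under 0.05, and DESeq2 called 0.00937%. Over all genes tested the share called by edgeR was 0%, so its test did not show a decline of the KO effect after day 7 for these genes or any other. The libraries of day 7 enter this comparison and that of days 7 and 2 alike, so the direction of both rests in part on the same samples.

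Within genotypes, the rise of Ly6a in KO stood beside lower levels in WT at day 7. In KO from day 2 to day 7, Ly6a, Sprr1a, Il1rn and Il33 rose, 4 of 9 genes against 7.21% of all genes tested. Their log2 fold changes were 2.57 for Ly6a (SE 0.58, adjusted p = 0.00647 by edgeR's quasi-likelihood test, Benjamini-Hochberg adjusted), 2.30 for Sprr1a (SE 0.61, adjusted p = 0.0144), 1.82 for Il1rn (SE 0.46, adjusted p = 0.00990) and 1.00 for Il33 (SE 0.30, adjusted p = 0.0326). For S100a6 the value was 0.87 (SE 0.39, adjusted p = 0.147). Without KO day 7 replicate 1 the adjusted p was 0.131 for Il33 and 0.0702 for Sprr1a, and the log2 fold change of Ly6a was 1.84. Without KO day 2 replicate 2 the adjusted p was 0.110 for Il33 and 0.0553 for Sprr1a. In these fits the log2 fold changes were 0.78 and 0.78 for Il33 and 1.87 and 1.99 for Sprr1a. Il33 also missed the threshold without KO day 2 replicate 1 (log2 fold change 0.97, adjusted p = 0.0987) and without KO day 7 replicate 2 (1.02, adjusted p = 0.0640). The same held with all libraries when low counts were not filtered (0.995, adjusted p = 0.101). With each library left out in turn the adjusted p ranged from 0.0179 to 0.131 for Il33 and from 0.0128 to 0.0702 for Sprr1a.

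In KO from day 7 to day 14, 0 of the 9 genes were called by edgeR, 2 had an unadjusted p under 0.05 and 1 (Ly6a) was called by DESeq2. Over all genes tested edgeR called 0.0468%, 9.27% had an unadjusted p under 0.05 and DESeq2 called 1.04%. The Ly6a log2 fold change was -2.57 (SE 0.59, adjusted p = 0.115 by edgeR's quasi-likelihood test, Benjamini-Hochberg adjusted) and that of Il33 was -1.04 (SE 0.31, adjusted p = 0.215). Ly6a, Il33, Il1rn and Ly6d each had all 3 KO day 14 libraries below all 3 KO day 7 libraries, 4 of 9 genes against 6.21% of all genes tested. In WT from day 2 to day 7, 0 of the 9 genes were called by edgeR, against 0.553% of all genes tested. Log2 fold changes were below 0 for 8 of the 9, with a median of -0.61 beside 0.01 over all genes tested. Ly6a (log2 fold change -1.89, adjusted p = 0.113) alone had an unadjusted p under 0.05, 1 of 9 against 22.4% of all genes tested. DESeq2 called the same gene, 1 of 9 against 7.08% of all genes tested. In WT from day 7 to day 14, 0 genes were called by edgeR, 2 (Clu, 1.85, and Ly6d, 1.59) had an unadjusted p under 0.05 and 0 were called by DESeq2. The shares of all genes tested were 0.0796% by edgeR, 5.18% at that unadjusted p and 0.23% by DESeq2. A trait of the libraries moved with day in these comparisons. Genes under 200 bases took 1.19% to 1.66% of counts at day 2, 1.37% to 2.41% at day 7, 2.73% to 3.34% in KO at day 14 and 3.95% to 5.77% in WT at day 14. Its part in the differences was not tested.

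Among themselves the genes fell into patterns when their log2 CPM was correlated over the 18 libraries of all 6 groups. Pearson's r was 0.89 between Il1rn and S100a6, 0.88 between Il1rn and Sprr1a and 0.81 between Il33 and S100a6. Ly6a was closest to S100a6, with r of 0.67. Msln and Anxa1 formed a pair with r of 0.83, while Msln and Il33 had r of 0.10. Ly6d was closest to Ly6a, with r of 0.50, and had r of -0.01 with Il1rn. These are descriptions over libraries that share their scaling and include the group differences.

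Msln and Anxa1 varied beside markers of the mesothelium, the lining of the outer gut wall, for which mesothelin is named. The 7 mesothelial markers, of which Upk1b was the most abundant per length and Krt5 had at most 3 counts per library, summed to 8.59, 8.27 and 39.2 CPM in KO day 2 and 35.1, 29.7 and 55.5 CPM in WT day 2. Msln stood at 0.732, 0.799 and 5.69 CPM in the same KO libraries and 4.31, 3.20 and 8.28 CPM in WT. Both were low in KO replicates 1 and 2 and high in replicate 3. At day 7 the sums were 18.9, 14.5 and 24.8 CPM in KO and 13.2, 25.3 and 19.6 CPM in WT. At day 14 they were 21, 14.1 and 39.6 CPM in KO and 40.9, 22.2 and 75.9 CPM in WT, with the highest sum in WT replicate 3, where Anxa1 and Clu had their highest level of all libraries. Of the 6 mesothelial genes tested, 0 were called by edgeR on any day, with 1, 0 and 1 at an unadjusted p under 0.05 at days 2, 7 and 14. Over all genes tested the shares at that p were 3.33%, 29.9% and 21.6%. The 12 markers of fibroblasts and smooth muscle, of which Vim was the most abundant, summed to between 29.8 CPM in KO day 2 replicate 1 and 203 CPM in WT day 14 replicate 3. At day 7 Vim alone of them rose, 1 of 12 against 7.11% of all genes tested, and 11 of the 12 were above 0. In KO day 7 they summed to 78.4, 51.6 and 102 CPM, against 34.4, 47.8 and 71.4 CPM in WT. The part of these cells in the levels of Msln, Anxa1 and Clu was not tested.

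**Figure D3:**
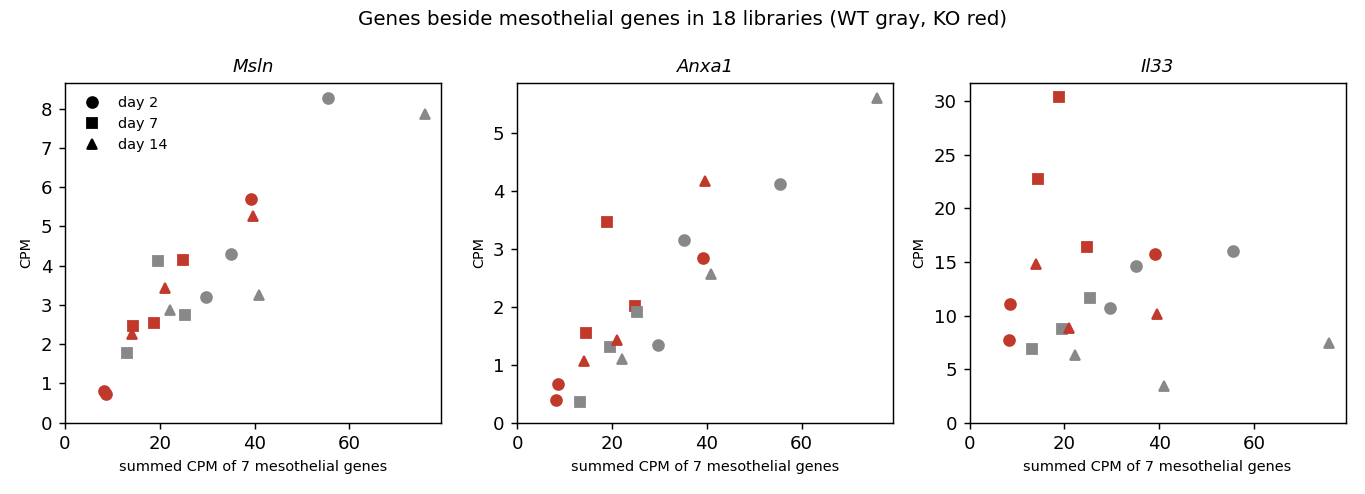
Level in CPM (y axis) of Msln, Anxa1 and Il33 against the summed CPM of 7 mesothelial genes (x axis) in the 18 libraries; WT gray, KO red, with a symbol for each day. The libraries with sums of 55.5 and 75.9 CPM are the highest for Msln, and that with 75.9 CPM is the highest for Anxa1, while Il33 is highest in KO day 7 libraries with sums of 18.9 and 14.5 CPM.

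For each gene, the 3 genes with the most similar profile over the 18 libraries were listed from those with a mean count of at least 50. Anxa1 was closest to Sparc and Ildr2 (r of 0.92 each) and Lrrn4 (0.91), and Msln to Ildr2 (0.96), Plxna4 (0.95) and Lrrn4 (0.95), where Lrrn4 is itself among the mesothelial markers. Clu was closest to Trf (0.81), Thsd4 (0.78) and Bcam (0.76). Ly6d was closest to the antibody genes Ighg2b (0.82), Jchain (0.78) and Igkc (0.74), which plasma cells transcribe. None of these genes was called at day 7. Ly6a was closest to Gsr (0.88), which encodes glutathione reductase, Kdm7a (0.84) and Tmsb10 (0.84). Il33 was closest to the glutathione transferase gene Gsta1 (0.95), Gm3776 (0.94) and the chloride exchanger gene Slc26a3 (0.93). Il1rn was closest to Pfkl (0.93), Dhrs9 (0.92) and Atf4 (0.92). S100a6 was closest to Fam102b (0.94), Gm22133 (0.94) and the ferritin gene Ftl1 (0.93), and Sprr1a to Pi4k2a (0.93), B3gnt7 (0.93) and the thioredoxin reductase gene Txnrd2 (0.93). All of those listed for Ly6a, Il33, Il1rn, S100a6 and Sprr1a rose in KO at day 7, which their choice by likeness over the same libraries largely fixes.

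Immune markers did not pass the test. Of 18 immune markers, with Gzma the most abundant, 0 were called by edgeR on any day, with 0, 1 and 3 at an unadjusted p under 0.05 at days 2, 7 and 14. Over all genes tested 3.33%, 29.9% and 21.6% had such a p. At day 7, 14 of the 18 were above 0, with a median log2 fold change of 0.35 beside 0.02 over all genes tested. The immune markers summed to 121, 161 and 210 CPM in KO day 7 and 214, 131 and 105 CPM in WT day 7, so the groups overlapped. At day 7, where Ly6d was higher in each KO library, Jchain was at 2.71, 2.7 and 4.85 CPM in KO and 3.67, 3.32 and 2.15 CPM in WT, and its groups overlapped. At day 14 Jchain was at 9.44 CPM in WT day 14 replicate 1 and 1.11 CPM in replicate 2, where Ly6d was at 1.28 and 0.0790 CPM. The part of plasma cells in the level of Ly6d was not tested. Of 4 endothelial genes tested, Pecam1 was the most abundant and alone rose at day 7, where 7.11% of all genes tested rose, while the other 3 were below 0 and the median log2 fold change was -0.46.

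Other genes of the regenerative or fetal-like state were in part higher in KO than in WT crypts at day 7. Of 25 listed, 23 were tested, and Ly6c1 was near 0 counts. At day 7, 7 of the 23 rose, against 7.11% of all genes tested, and 16 did not pass the test. All 23 had a log2 fold change above 0, and the median was 0.73 beside 0.02 over all genes tested. Areg, the EGF receptor ligand amphiregulin, stood at 38.4, 23.9 and 18.7 CPM in KO and 1.69, 0.958 and 2.41 CPM in WT, a fold change on the log2 scale of 3.96 (SE 0.43, adjusted p = 1.63e-05 by edgeR's quasi-likelihood test, Benjamini-Hochberg adjusted). Each KO library was far above every WT library. Its relative Ereg, epiregulin, rose by 2.26 (SE 0.45, adjusted p = 0.00264), Plaur, the urokinase receptor, by 1.98 (SE 0.41, adjusted p = 0.00229) and Anxa3 by 1.58 (SE 0.28, adjusted p = 0.000730). S100a10, the most abundant of the list, was at 131 to 188 CPM in KO and 96.4 to 151 CPM in WT and did not pass the test. At day 14, 4 rose, against 3.23% of all genes tested, and the median was 0.47. They were Areg (1.82), F3 (1.27) and, named after their values were seen, Tnfrsf12a (1.34) and Cldn4 (1.24).

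The YAP and TAZ targets did not stand apart from other genes by their count of calls. Of 23 listed, 19 were tested, and 2 rose at day 7, where 7.11% of all genes tested rose. Ccn1 (log2 fold change 1.40, SE 0.40, adjusted p = 0.0193 by edgeR's quasi-likelihood test, Benjamini-Hochberg adjusted) and Arhgef17 (1.10, SE 0.31, adjusted p = 0.0192) were the 2, and the median of the list was 0.12 with 11 above 0 and 8 below. Ccn1 encodes a matrix-associated protein and was at 2.22, 1.12 and 1.66 CPM in KO and 0.684, 0.831 and 0.394 CPM in WT. Dock5, the most abundant target, was at 163 to 188 CPM in KO and 139 to 159 CPM in WT without passing the test. At day 14 F3, the tissue factor gene, was the single target called, 1 of 19 that rose against 3.23% of all genes tested. The median was -0.05. Of 15 Hippo pathway genes, with Mob1a the most abundant, 1 fell at day 7, against 10.2% of all genes tested. It was Vgll4, which competes with YAP for TEAD proteins (log2 fold change -0.56, SE 0.15, adjusted p = 0.0129). Tead2 rose at day 14 (0.73, SE 0.21, adjusted p = 0.0390), 1 of 15 against 3.23% of all genes tested. The medians of the Hippo list were 0.09 at day 7 and -0.03 at day 14. Transcript levels do not report whether YAP is in the nucleus.

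Of the IL-1 family and its receptors, 24 symbols were listed, 21 were in the table and 14 were tested. The symbols not found, Il36a, Il36b and Il36g, are newer names of Il1f6, Il1f8 and Il1f9, which were listed and in the table. At day 7, 4 of the 14 rose and 2 fell, against 7.11% and 10.2% of all genes tested, with a median log2 fold change of 0.33. Besides Il33 and Il1rn, Il18, the most abundant, rose from 30.8, 47.8 and 33.7 CPM in WT to 71.7, 68.9 and 61.6 CPM in KO (log2 fold change 0.85, SE 0.15, adjusted p = 0.000684 by edgeR's quasi-likelihood test, Benjamini-Hochberg adjusted). IL-18 is a cytokine that epithelial cells release after inflammasome cleavage, and Il18bp, its secreted inhibitor, rose by 0.57 (adjusted p = 0.0470). Irak1, a kinase that relays IL-1 receptor signals, fell by 1.31 on the log2 scale (SE 0.12, adjusted p = 4.48e-07), and Sigirr, an inhibitory receptor of the family, fell by 0.69 (adjusted p = 0.000699). Il18bp and Sigirr are named after their values were seen. At day 14 Il18 was higher (1.23, adjusted p = 5.6e-05) and Irak1 (-1.14, adjusted p = 6.32e-06) and Sigirr (-0.45, adjusted p = 0.0293) were lower. Of all genes tested 3.23% were higher and 4.69% lower at day 14, and the list had a median of -0.17. Il1f5 and Il1f6 had at most 3 counts in any library.

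The families of the other members were surveyed in the same way, and their counts at day 7 stand beside the 7.11% of all genes tested that rose. Of 35 Ly6 family genes 16 were tested, 5 had 0 counts (Ly6h, Ly6l, Lypd2, Lypd5 and Gpihbp1), and 3 rose at day 7: Ly6a, Plaur and Lynx1 (log2 fold change 1.62, SE 0.40, adjusted p = 0.00809 by edgeR's quasi-likelihood test, Benjamini-Hochberg adjusted). The family median was 0.35, and Lypd8, which binds flagellated bacteria at the surface of the colon, was the most abundant at 781 to 1281 CPM in KO and 732 to 938 CPM in WT. Of 17 S100 genes 10 were tested, all 10 were above 0 at day 7 with a median of 0.97, and S100a6, S100b (1.28, adjusted p = 0.0314) and S100a11 (0.97, adjusted p = 0.00160) rose. Of 12 annexins, all tested, 11 were above 0 with a median of 0.52, and 2, Anxa3 and Anxa13, rose. Anxa13, an annexin of epithelial cells and the most abundant, was at 686, 436 and 293 CPM in KO and 141, 212 and 166 CPM in WT (log2 fold change 1.45, SE 0.26, adjusted p = 0.000893). The formyl peptide receptors Fpr1, Fpr2 and Fpr3, through which ANXA1 acts on leukocytes, had at most 3 counts per library and none was tested. At day 14, 0 genes of the Ly6, S100 and annexin families were called by edgeR, with 5, 1 and 3 at an unadjusted p under 0.05 and 1, 0 and 1 called by DESeq2. These stand beside 7.92% of all genes tested called by edgeR, 21.6% at that unadjusted p and 9.76% called by DESeq2. The lists overlap, since Plaur, S100a10, S100a11, Ly6c1, Ly6e and annexins are also among the other regenerative genes.

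All Sprr genes that could be tested rose at day 7. Of 15 Sprr genes 4 were tested, 10 had 0 counts in every library and Sprr2b had at most 3. Sprr1a and the 3 Sprr2a genes were higher at day 7, against 7.11% of all genes tested, with a median log2 fold change of 2.15. Sprr2a3, the most abundant, was at 14.9, 7.20 and 9.61 CPM in KO and 2.05, 1.41 and 3.59 CPM in WT (log2 fold change 2.14, SE 0.46, adjusted p = 0.00377 by edgeR's quasi-likelihood test, Benjamini-Hochberg adjusted). Sprr2a1 and Sprr2a2 had log2 fold changes of 2.19 (adjusted p = 0.00109) and 2.15 (adjusted p = 0.000773). Sprr2a1, Sprr2a2 and Sprr2a3 share over 98% of their sequence along 2867 or more bases, so their fragments often align to several of them and were then not counted, and their single values are uncertain. SPRR2A is a small proline-rich protein released by the gut epithelium with activity against Gram-positive bacteria. At day 14, 0 of the 4 genes were called by edgeR, all 4 had an unadjusted p under 0.05 and DESeq2 called 4, with a median of 1.27. Of all genes tested edgeR called 7.92%, 21.6% had an unadjusted p under 0.05 and DESeq2 called 9.76%.

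Most adult stem cell genes fell at day 7. Of 16 genes 12 fell, against 10.2% of all genes tested, and all 16 were below 0, with a median log2 fold change of -0.90. Lgr5, the receptor that marks crypt base stem cells, was at 5.07, 12.1 and 18.2 CPM in KO and 38.3, 39.0 and 29.0 CPM in WT (log2 fold change -1.59, SE 0.29, adjusted p = 0.00131 by edgeR's quasi-likelihood test, Benjamini-Hochberg adjusted). The lowest library was again KO replicate 1. Tnfrsf19 (-1.45), Nkd1 (-1.38), Smoc2 (-1.34) and Olfm4 (-1.30), the most abundant of the list, fell as well. For the passing fall of Lgr5 and Olfm4, the study raised toxicity of tamoxifen to stem cells as a possible reason. That was not tested here. At day 14, 3 of the 16 were lower, against 4.69% of all genes tested: Smoc2 (-0.70) and, named after their values were seen, Cdca7 (-0.67) and Prom1 (-0.77), with a median of -0.31.

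Interferon-stimulated genes, a group in which Ly6a is often counted, were in part higher in KO than in WT crypts at day 7. Of 20 genes 9 rose at day 7, against 7.11% of all genes tested, 18 were above 0, and the median log2 fold change was 0.71. Isg15 was at 8.72, 3.93 and 4.72 CPM in KO and 1.51, 1.6 and 1.58 CPM in WT (log2 fold change 1.88, SE 0.44, adjusted p = 0.00697 by edgeR's quasi-likelihood test, Benjamini-Hochberg adjusted). Its highest value at day 7, like that of Ly6a, was in KO replicate 1. Mx2 (1.82), Rsad2 (1.72) and Bst2 (1.40) rose too. At day 2, 19 of the 20 were below 0 with a median of -0.32. At day 14, 1 of the 20 rose, against 3.23% of all genes tested, and the median was 0.20. It was Ifit2 (0.93, adjusted p = 0.0391, named after its value was seen), and the replicate block ended this call. At day 2, 0 genes were called by edgeR or by DESeq2 in any of these lists. At an unadjusted p under 0.05 there were 1 of the other regenerative genes, 2 YAP and TAZ targets, 1 S100 gene and 2 interferon-stimulated genes, and 0 in the Hippo, IL-1, Ly6, Sprr, annexin and stem cell lists. The share of all genes tested at that p was 3.33% at day 2.

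Some members are neighbors on their chromosomes. S100a6 and Sprr1a are 1.86 Mb apart on chromosome 3, with 48 genes between them that include 15 Sprr and 3 S100 genes. Ly6d and Ly6a are 231256 bases apart on chromosome 15, with 15 genes between them that include 5 Ly6 genes. Anxa1 and Il33 share chromosome 19 at a distance of 9.53 Mb. Exons of the 9 genes overlapped those of no other gene. Ly6a shares 263 bases at 96.6% identity with Ly6c1, which had at most 3 counts per library. Msln shares stretches of 100 or more bases at 95% identity or above with 95 other genes, the longest of 161 bases.

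Because Il33, Il1rn, S100a6 and Sprr1a rose together at day 7, their promoters are shown as an example of the sequences upstream of genes called in common. The sequences are from RefSeq on build GRCm38.p6, each of 300 bases from 250 before to 50 after the start of transcription, printed 5′ to 3′ on the strand of the gene. Of the 9 genes 5 were matched, with 8 promoters, and the promoter nearest the start of the gene model is given. Both strands were searched for GGAATG (TEAD, found in 14.7% of 32851 promoters), TGANTCA (AP-1, 7.81%), GGGA and TTTCC with any 1 base between (NF-kB, 0.411%) and GAAA and GAAA with any 2 bases between (interferon response, 3.44%). Capitals mark every match. Il33 is at chr19:29924863-29925162 (+), Il1rn at chr2:24336610-24336909 (+), S100a6 at chr3:90612644-90612943 (+) and Sprr1a at chr3:92485832-92486131 (-).
Il33: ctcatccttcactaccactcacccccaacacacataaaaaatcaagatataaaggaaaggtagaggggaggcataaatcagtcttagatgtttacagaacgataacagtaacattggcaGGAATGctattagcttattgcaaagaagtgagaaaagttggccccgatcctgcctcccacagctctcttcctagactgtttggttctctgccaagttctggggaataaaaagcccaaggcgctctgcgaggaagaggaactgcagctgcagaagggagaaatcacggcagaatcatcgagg
Il1rn: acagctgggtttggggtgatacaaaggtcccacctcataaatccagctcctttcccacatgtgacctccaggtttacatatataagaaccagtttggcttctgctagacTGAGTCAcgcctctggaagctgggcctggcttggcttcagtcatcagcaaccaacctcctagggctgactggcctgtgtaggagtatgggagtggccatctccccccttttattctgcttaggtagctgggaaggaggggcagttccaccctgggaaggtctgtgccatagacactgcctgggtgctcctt
S100a6: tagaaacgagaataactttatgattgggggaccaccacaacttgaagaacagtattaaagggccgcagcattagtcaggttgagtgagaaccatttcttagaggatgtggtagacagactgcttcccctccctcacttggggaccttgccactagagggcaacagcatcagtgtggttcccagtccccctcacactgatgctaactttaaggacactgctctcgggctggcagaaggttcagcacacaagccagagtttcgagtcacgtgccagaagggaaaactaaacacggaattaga
Sprr1a: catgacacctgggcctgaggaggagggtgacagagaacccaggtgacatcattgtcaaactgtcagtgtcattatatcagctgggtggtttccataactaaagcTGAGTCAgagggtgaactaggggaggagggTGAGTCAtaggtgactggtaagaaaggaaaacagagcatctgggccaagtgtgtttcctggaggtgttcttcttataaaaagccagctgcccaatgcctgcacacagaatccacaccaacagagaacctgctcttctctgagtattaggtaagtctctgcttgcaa

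The Sprr1a promoter held 2 copies of TGAGTCA, starting at -146 and -116 relative to the start of transcription, and the Il1rn promoter held 1 copy at -141. The Il33 promoter held 1 GGAATG, at -131. The S100a6 promoter held none of the searched letters in this window. Of the other member promoters, that of Anxa1 and a further Il33 promoter each held CATTCC, the reverse complement of GGAATG, and 1 of 2 further Il1rn promoters held GGAATG. These are matches of letters and were not tested for binding of any factor.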

How the data were processed

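Crypt RNA-Seq libraries came from 18 mice, 3 per genotype and day. The authors aligned reads to mm10 with STAR 2.7.3 and deposited 1 table of fragment counts per gene from featureCounts 1.6.4, without normalization. The table names GENCODE release 23 and the methods release 26. Strand was ignored, fragments over several genes were counted for each, and multi-mapping fragments were not counted. Gene lengths are the merged exon lengths of the deposited table.

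The 20 genes of the study's male against female table were left out, counts were filtered with filterByExpr by group and scaled by TMM in edgeR 4.0.16 (limma 3.58.1, R 4.3.3), and 1 quasi-likelihood model with robust dispersions held 1 mean for each of the 6 groups. P-values were adjusted over all 21349 genes tested. At 12844642 to 31493484 counts per library, counting error relative to the level is largest for genes of few counts, such as Ly6d, Il1rn and Sprr1a. Its part beside the variation among 3 mice was not tested.

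Named are all 9 genes, Prmt1 and Esr1, from each pathway list up to 4 genes called at day 7 or 14 with the largest fold changes and the most abundant gene, from each cell type list the most abundant gene and those at 0 counts, and for each of the 9 the 3 most similar genes by Pearson's r of log2 CPM (prior count 2); genes named outside this rule are marked in the text, and a few results are not reported here. The members and lists were chosen with earlier results of these data known. The pathway lists were other regenerative, YAP and TAZ target, Hippo, IL-1 family, Ly6, S100, Sprr, annexin, formyl peptide receptor, stem cell and interferon-stimulated genes. The cell type lists were epithelium, immune cells, neutrophils, endothelium, fibroblasts and smooth muscle, mesothelium, stratified squamous epithelium, enteroendocrine, Paneth, goblet and tuft cells and enterocytes.

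Alternatives were DESeq2 1.42.0's Wald test, its size factors, no filter, a mean count of at least 50, the male against female genes kept, a block for the replicate number, models of only the groups compared, the 20 most abundant genes left out and each library left out in turn. A block for the replicate number within each day was added after the data were seen. Sequences were compared with blastn 2.17.0, and plots were drawn with Python 3.11.15, numpy 2.4.6 and matplotlib 3.10.9.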

Additional observations from a re-analysis of the deposited data

Results flagged for a closer look

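The KO effect differed between days for 2 genes, by a test of the difference itself in edgeR's quasi-likelihood model with Benjamini-Hochberg adjustment. For Ly6a the log2 fold change of KO against WT was larger at day 7 than at day 2 by 4.46 (adjusted p = 0.00809), with all 3 KO libraries above all 3 WT libraries at day 7 and overlapping groups at day 2. For Il33 it was larger by 1.62 (adjusted p = 0.0426), again with separated groups at day 7 and overlapping groups at day 2. The Il33 difference kept its call in 4 of the 12 fits that left out 1 library and in 7 of 9 other settings, and the Ly6a difference in 12 of 12 and 9 of 9.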

How the results depend on the processing

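For single genes, the 3 comparisons of KO and WT, the 2 differences between them and KO from day 2 to 7 were recomputed, and for the other comparisons between days only the number of genes called. Of 883 values of these 54 results under other settings, 823 kept their direction and their side of the threshold, 24 changed sign, 14 gained a call and 22 lost one. No value that changed sign was called. The call at day 7 remained under all settings other than leaving out a library for Ly6a, Il33, Il1rn, S100a6 and Sprr1a wherever each was tested. The number of genes called at day 7 (5) was 3 with a mean count of at least 50, where 4 of the 9 genes were no longer tested, 6 with no filter, 6 with the block within each day that was added after the data were seen, 7 with only the groups compared, and 3 to 5 without 1 library. At day 14 (0) it was 2 with DESeq2, 1 with no filter, 1 with only the groups compared, 3 with the block within each day, and 0 to 1 without 1 library. For the difference of days 7 and 2 (2) it was 1 with no filter, 1 with the replicate block, 3 with the block within each day and 1 to 3 without 1 library. In WT from day 2 to 7 (0) it was 1 with DESeq2 and 1 with only the groups compared. In KO from day 2 to 7 (4) it was 2 to 4 without 1 library, 3 with no filter and 2 at a mean count of 50 or more, and it was 1 with DESeq2 from day 7 to 14 (0). Apart from the genes no longer tested, the cause was not tested.

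Without 1 library, log2 fold changes that changed sign ranged, at day 2, from -0.54 to 0.42 for Clu, -0.017 to 0.90 for Il1rn, -0.19 to 0.74 for S100a6 and -0.081 to 1.42 for Sprr1a; at day 7, from -0.19 to 0.46 for Msln; and at day 14, from -0.60 to 0.61 for Clu, -1.28 to 0.33 for Anxa1, -0.081 to 1.36 for Ly6a and -0.70 to 0.27 for Msln. The differences of days 14 and 7 ranged from -0.83 to 0.17 for Msln and -1.13 to 0.25 for Sprr1a, and KO from day 2 to 7 from -0.42 to 0.37 for Ly6d and -0.14 to 1.98 for Msln. With the block within each day, Clu at day 14 was 0.053. After removing group means, KO and WT libraries of the same number had r of 0.05, 0.16 and 0.38 at day 2, -0.16, 0.21 and 0.08 at day 7, and 0.23, 0.18 and 0.16 at day 14, where all 3 exceeded 0.1 and each KO library was closest to the WT library of its own number. At days 2 and 7 this did not hold for every library. The replicate block ended the call of Il33 for the difference of days 7 and 2, and the block within each day added Ly6d at day 7, Il33, Il1rn and Sprr1a at day 14 and Msln for that difference; neither changed another call of the 9 genes. With the replicate block the day 7 log2 fold change of Ly6a was 3.66.

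Genes called over all tested depended on the setting as well. In WT from day 2 to 7 they went from 118 to 1511 with DESeq2, 1012 with no filter, 576 with only the groups compared and 494 at a mean count of at least 50. They were 288 with the 20 most abundant genes left out, 19 with the replicate block and 0 to 535 without 1 library. In KO from day 7 to 14 they went from 10 to 222 with DESeq2 and 0 to 119 without 1 library, and for KO against WT at day 7 from 3690 to between 2051 and 4117 without 1 library. For KO against WT at day 14 they went from 1690 to between 1041 and 1334 without 1 library. Genes called higher for the difference of days 7 and 2 went from 285 to between 103 and 494 without 1 library. They were 526 with the block within each day. Among lists, other regenerative genes at day 7 went from 7 to 11 with DESeq2, Sprr genes at day 14 from 0 to 4 with DESeq2 and 3 with the replicate block, stem cell genes at day 14 from 3 to 5 with DESeq2, and interferon-stimulated genes at day 14 from 1 to 2 with DESeq2 and 0 with the replicate block. The part of depth in the uncertainty of genes with few counts was not tested.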

Other observations

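The remaining epithelial lineages are given as values, beside 7.11% of all genes tested that rose and 10.2% that fell at day 7, and 3.23% and 4.69% at day 14. At day 14, 21.6% of all genes tested had an unadjusted p under 0.05. Enteroendocrine cells had 12 listed genes, and all 12 rose at day 7 and at day 14, with median log2 fold changes of 1.24 and 1.35 (edgeR's quasi-likelihood test, Benjamini-Hochberg adjusted). Chgb, a granule protein and the most abundant of them per length, was at 428, 376 and 360 CPM in KO and 160, 140 and 151 CPM in WT at day 7. The 12 genes summed to 908, 768 and 724 CPM in KO day 7 replicates 1, 2 and 3 and to 321 to 343 CPM in WT. All 7 Paneth cell genes fell at day 7, and 2 of 7, Ang4 and Mptx2, fell at day 14, where all 7 were below 0 with an unadjusted p under 0.05 and a median log2 fold change of -1.19.

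Of 7 goblet cell genes, with Tff3 the most abundant per length, 2 fell at day 7 (Clca1 and Fcgbp) and the other 5 were above 0, the list having a median of 0.17 on the log2 scale. Of the 7, 1 fell at day 14 (Clca1) and 4 were above 0, with a median of 0.13. Of 6 tuft cell genes tested, with Avil the most abundant per length, Dclk1 fell and all 6 were below 0 at day 7, and at day 14 edgeR called 0, with 0 at an unadjusted p under 0.05. Of 10 epithelial genes Cdx1 fell at day 7 (log2 fold change -0.43), with 7 above 0. At day 14 the enterocyte gene Sis rose (1.15, adjusted p = 0.0229). Genes of these paragraphs other than the most abundant of each list were named after their values were seen.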
